A study of Homo sapiens with 16 samples.

Results

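The genes described here are the numbered ZNF genes of human chromosome 19, the largest block of zinc finger genes in the genome. They were taken as every gene in the count table whose symbol is ZNF followed by a number and whose chromosome is given as 19. Antisense transcripts and pseudogenes named with a suffix drop out by this rule, and gene type itself was not filtered. This gave 235 of the 26485 genes in the table. The study measured total RNA by RNA-seq in PC3, an established prostate carcinoma line, and in HeyA8, an established ovarian carcinoma line, both wild type. Cells were mock treated or transfected with siNT1 (the non-targeting control siRNA), with siGGGGGC or with siCAG, and RNA was taken after 24 or 48 h. This makes 16 libraries, 1 for each line, treatment and time. siGGGGGC was designed to carry the seed GGGGGC at positions 2 to 7 of its guide strand, which pairs with GCCCCC in the 3′ UTR of a transcript. The sources used here do not describe the target of siCAG. The labels give an siRNA dose of 1 nM and the study's methods a higher one, so the dose is not certain, and the titles name the siGGGGGC libraries siMxy. Each group holds 2 libraries, the 24 h and the 48 h one, of a single line grown in culture. Wells were lysed at 24 h and further wells at 48 h, and nothing in the sources says that these were independent experiments. The p-values therefore measure the spread between these libraries that is left after a time term shared by the treatments of a line. That spread includes any change of a treatment's effect between the times. In total RNA from cultures, fewer cells making a transcript and less of it per cell cannot be told apart.

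Most proteins of this family carry a run of C2H2 zinc fingers that bind DNA and, at the other end, a KRAB box. The KRAB box binds TRIM28 (KAP1), which brings SETDB1, HP1 proteins and histone deacetylases and so packs the bound DNA into heterochromatin. The family is best known for holding retroelements silent, and it grew by repeated tandem duplication, which is why the genes lie in clusters of close relatives on chromosome 19. Other members have no KRAB box, and a few carry a SCAN domain, a dimerisation module. Some of these are ordinary transcription factors.

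The match to the siGGGGGC seed was present as GCCCCC in the annotated 3′ UTR of 43 of the 232 family genes with a coding transcript (18.5%), against 5389 of 17980 genes genome-wide (30%). When only the transcript with the longest coding sequence was read, the counts were 33 (14.2%) and 4727 (26.3%). ZNF444, a SCAN protein first described as an activator of an endothelial scavenger receptor gene, had 5 matches, the most in the family, and ZNF8 had 4. Their sites are shown because these are the family genes with the most matches and their fold changes after siGGGGGC in PC3, given further on, had opposite signs, neither of which passed the test. Each window is 30 bases of the 3′ UTR on the + strand of hg38 with GENCODE v44 models, and the capitals mark GCCCCC.
ZNF444 at chr19:56160228-56160257: gcccttggtgctGCCCCCgggcggtacctg
ZNF444 at chr19:56160401-56160430: ggtctcacctcaGCCCCCcccttctccctg
ZNF444 at chr19:56160614-56160643: ggcgcaggccagGCCCCCttggtgaagcag
ZNF444 at chr19:56160765-56160794: cttggtcttgctGCCCCCtgtgacccaaag
ZNF444 at chr19:56160806-56160835: acagagatgcctGCCCCCgtgaagctggtt
ZNF8 at chr19:58296296-58296325: attacgtgaccaGCCCCCacgaaatttcac
ZNF8 at chr19:58300458-58300487: cctgcagcacatGCCCCCcttagtctcact
ZNF8 at chr19:58300784-58300813: gacctgctgtccGCCCCCactgcttcacag
ZNF8 at chr19:58301614-58301643: ccctccaccttgGCCCCCaaaatggccagt
A match is a description of the sequence and not a measured binding site. No family gene held 6 or more CTG in a row, the triplet that CAG pairs with, and the longest run in any of them was 3.

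The encoded proteins were large arrays of fingers. A C2H2 match was found in every one of the 232 proteins, with a median of 12 fingers and quartiles of 9 and 15. ZNF208 had the most, 36, followed by ZNF729 with 34 and ZNF91 with 31, and ZNF428 had 1. A KRAB A-box-like stretch was found in 175 proteins, or in 192 when the last position of the pattern also allowed leucine, and a SCAN-like stretch in 3 (ZNF444, ZNF274 and ZNF446). With a gap of more than 500 kb starting a new run of neighbours, the genes fell into 20 runs, 8 of which held 14 or more genes. The longest were ZNF264 to ZNF446 near the end of the long arm with 41 genes (chr19:57191500-58489533), ZNF175 to ZNF331 with 39 (chr19:51571278-53580269) and ZNF101 to ZNF254 with 30 (chr19:19668153-24129967). For 179 genes the closest relative by protein sequence lay in the same run. In 21 genes the closest relative was at least 80% identical over at least 80% of the length, and 29 genes overlapped another gene of the table, so reads of these can be shared or lost in counting. ZNF714, for instance, was 86.1% identical to ZNF431, and ZNF600 89.1% identical to ZNF611, each over the stretch of protein that aligned.

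The cell lines carried the markers of their labels in part. HOXB13, a prostate lineage factor, was at 76.4 to 463 CPM (counts scaled to a common library size) across the 8 PC3 libraries and at 0.354 to 2.84 across the 8 HeyA8 libraries. KLK3, which encodes prostate-specific antigen, was at 0 in all 16 libraries. PAX8, a marker of ovarian and Müllerian epithelium, was at 66.6 to 251 CPM in HeyA8 and at 1.40 to 5.99 in PC3, but the other 3 genes of the ovarian list did not set the lines apart in that direction. MUC16 did not exceed 0.173 CPM in HeyA8 and 0.636 in PC3, and WT1 (6.84 to 18.4 CPM in HeyA8, 8.33 to 13.2 in PC3) and KRT7 (median 342 CPM in HeyA8, 502 in PC3) overlapped between the lines. Of 3 mesenchymal genes, vimentin was higher in HeyA8 (4680 to 8080 CPM) than in PC3 (752 to 1050 CPM). ZEB1 was too (93.4 to 210 against 6.12 to 49.9 CPM), and CDH2 overlapped (median 159 CPM in HeyA8, 187 in PC3). Of 4 epithelial genes, KRT8 and KRT18 were higher in HeyA8, and EPCAM and CDH1 in PC3. Among 3 genes of other cell types, the leukocyte gene PTPRC did not exceed 0.37 CPM in either line. PECAM1 was at 1.43 to 4.67 CPM in PC3 and 0.0724 to 2.03 in HeyA8. COL1A1 was at 21.1 to 57.0 and 3.55 to 47.0 CPM.

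Most of the family was measurable, at low levels. Library totals ran from 27937092 to 29971612 counts in PC3 and from 29128446 to 31790209 in HeyA8. At least 10 reads were counted in all 16 libraries for 172 of the 235 genes, in all 8 PC3 libraries for 199 and in all 8 HeyA8 libraries for 181. In 19 genes no library reached 10 reads, and 4 of these, ZNF536, ZNF728, ZNF729 and ZNF90, were at 0 throughout. A further 15 genes were at 0 in every HeyA8 library only and 1 in every PC3 library only. A count of 0 allows up to 3 reads in a library of this depth, counting error alone considered.

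The family made up more of the RNA of PC3 than of HeyA8. Summed over the 235 genes, after TMM scaling over all 16 libraries (a correction for differences in RNA composition), PC3 mock cells had 3226.7 CPM at 24 h and 3177.2 at 48 h, against 2038.0 and 1828.7 in HeyA8. In PC3 the sums were 3030.6 and 2792.6 CPM with siNT1, 2712.0 and 3351.9 with siGGGGGC, and 3050.3 and 2975.9 with siCAG. In HeyA8 they were 1868.1 and 1779.8 CPM with siNT1, 2043.8 and 2278.3 with siGGGGGC, and 1922.6 and 2562.1 with siCAG. The lowest PC3 library stood above the highest HeyA8 library. In PC3 only the siGGGGGC 48 h library exceeded both mock libraries, and in HeyA8 the siGGGGGC and siCAG 48 h libraries did. The HeyA8 siGGGGGC 24 h library was level with the 24 h mock library, slightly above it here and slightly below it when scaled within the line (1830.6 against 1843.9 CPM). The siCAG 24 h libraries also changed places with siNT1 at 24 h when scaled within the line: in HeyA8 siCAG was then the lowest library (1543.1 against 1704.1 CPM), and in PC3 it lay slightly below siNT1 (3458.5 against 3499.6 CPM).

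**Figure D1:**
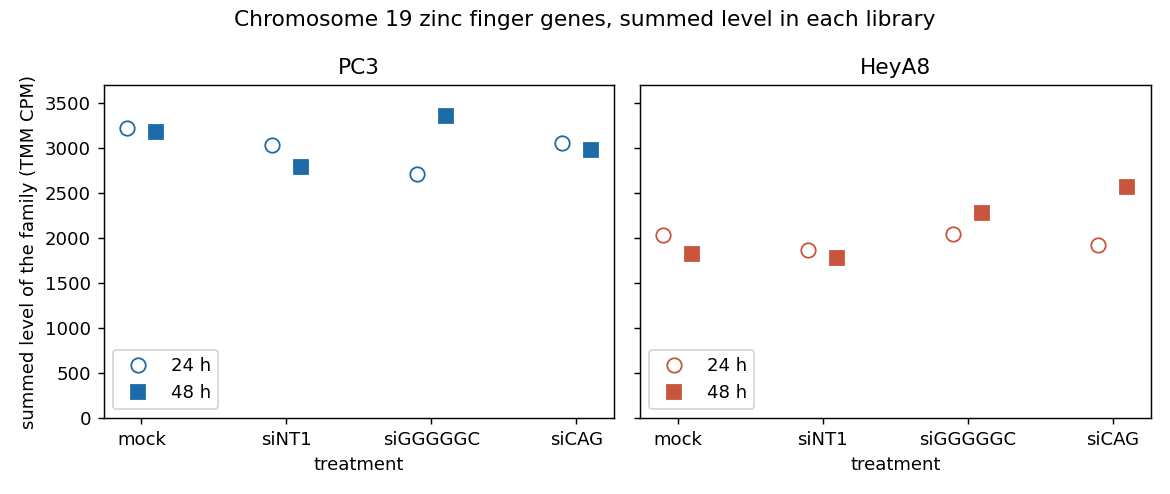
Summed level of the 235 chromosome 19 ZNF genes in each of the 16 libraries (TMM CPM, vertical axis) by treatment, with 24 and 48 h libraries and both lines marked. PC3 libraries run from 2712.0 to 3351.9 CPM and HeyA8 libraries from 1779.8 to 2562.1, so the lines do not overlap.

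Levels of single genes were compared per kb of merged exons. In mock PC3 cells the median over 233 genes with a gene model was 1.86 CPM per kb and in mock HeyA8 cells 0.927. ZNF146, a finger-only protein without a KRAB box that is overexpressed in some carcinomas, was the highest in both lines, at 29.7 ± 0.891 CPM per kb in PC3 and 45.1 ± 0.618 in HeyA8 (mean ± SD, n = 2). In PC3 it was followed by ZNF358 (16.3), ZNF581 (15.1), ZNF317 (14.3), ZNF266 (13.7), ZNF587 (10.8), ZNF787 (9.72), ZNF700 (8.42), ZNF473 (7.48) and ZNF761 (7.43 CPM per kb). ZNF358 and ZNF581 in PC3 did not differ beyond the spread of their 2 libraries, which was 3.45 CPM per kb (SD) for ZNF358. In HeyA8 the order of means after ZNF146 was ZNF581 (10.7), ZNF787 (10.3), ZNF317 (10), ZNF428 (7.94), ZNF544 (6.62), ZNF574 (6.29), ZNF302 (6.06), ZNF480 (5.90) and ZNF700 (5.69 CPM per kb). There ZNF581, ZNF787 and ZNF317 did not differ beyond the SDs of ZNF581 (1.36) and ZNF787 (2.39 CPM per kb). The 10 highest genes held 22.0% of the family's summed level per kb in PC3 and 30.1% in HeyA8, and 5 genes were in the top 10 of both lines (ZNF146, ZNF317, ZNF581, ZNF700 and ZNF787).

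Comparing mock PC3 with mock HeyA8 cells asked how the resting expression of the family differs between the lines. Of 214 genes that passed the filter on low counts, 105 were higher and 18 lower in PC3 at an adjusted p under 0.05 (edgeR's quasi-likelihood test, Benjamini-Hochberg adjustment over all genes). That is 57.5% of the family genes tested, while 45.5% of all 15887 genes tested were called. The fit held a time term for each line that all its treatments share, so its log2 fold changes between the lines are fitted values for 24 h and can depart from the ratio of the mock libraries. With the time terms centred between 24 and 48 h, 111 genes were called higher and 20 lower, 119 of them shared with the calls above. The family's median fitted log2 fold change was 1.01 (0.956 with centred time terms), beside 0.0888 for all genes, 0.0189 for the other chromosome 19 genes and 0.564 for ZNF genes on other chromosomes. With scaling by library size alone, which moved the all-gene median to 0.398, the family median was 1.32 and 142 genes were called, 128 of them higher in PC3. Leaving out the PC3 mock 24 h library lowered the count to 74, of which 64 were higher in PC3, and leaving out any other mock library gave 86 to 101.

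The difference was uneven along the chromosome. In the run from ZNF653 to ZNF791 (chr19:11483427-12629862), 22 of 26 genes tested were higher in PC3 and none was lower, with a median fitted log2 fold change of 1.62. In the runs from ZNF175 to ZNF331 and from ZNF264 to ZNF446, 25 of 37 and 26 of 40 genes were higher and 1 was lower in each. In the runs from ZNF565 to ZNF573 and from ZNF575 to ZNF180, by contrast, 2 genes were higher and 5 lower of 21 and 23 tested, with medians of -0.04 and -0.15. The run from ZNF101 to ZNF254, rich in primate-specific genes, was mixed, with 11 genes higher and 3 lower of 23 tested.

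**Figure D2:**
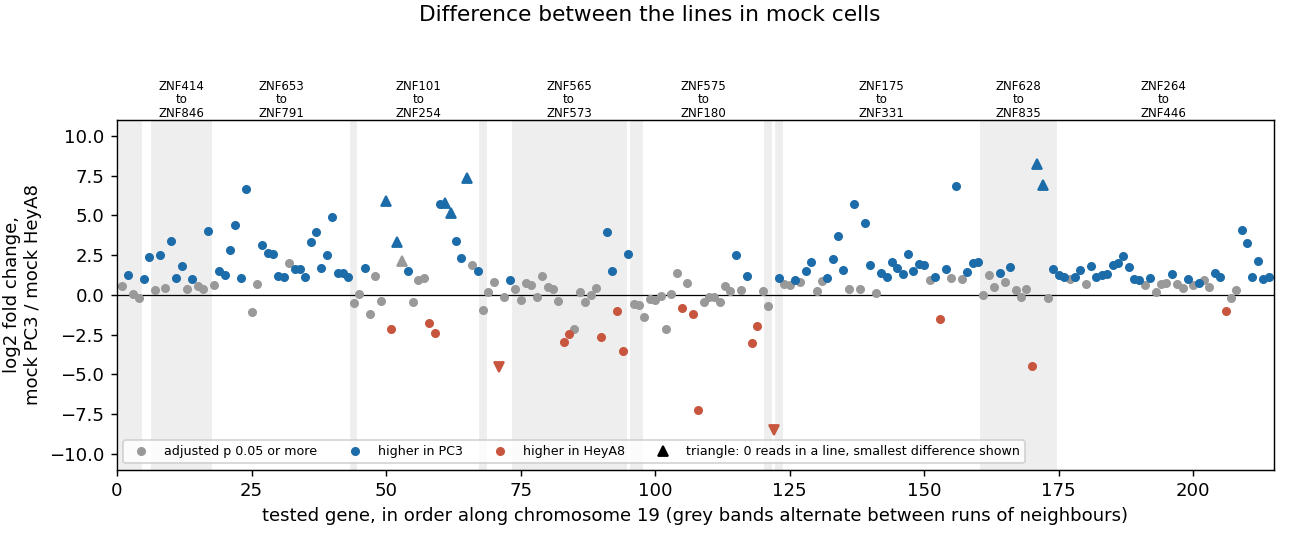
Fitted log2 fold change (24 h) of mock PC3 against mock HeyA8 cells (vertical axis) for the 214 genes tested, in order along chromosome 19 (horizontal axis). Colours mark genes higher in PC3 (105), higher in HeyA8 (18) or not called, triangles mark genes with 0 mock reads in a line at the smallest difference that 3 reads allow, and the 8 long runs are named above the plot.

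Some genes were at or near 0 in the mock cells of a line. ZNF667, a KRAB gene often methylated in carcinomas, had 1109 mock reads in PC3 and 0 in HeyA8, at least 306-fold higher when 3 reads are set for the HeyA8 group. It was at 14.9 to 32.6 CPM across the 8 PC3 libraries and at 0 in all 8 of HeyA8. ZNF681 (at least 163-fold), ZNF471 (at least 120-fold), ZNF682 (at least 61.3-fold), ZNF492 (at least 55.2-fold), ZNF730 (at least 35.4-fold) and ZNF737 (at least 9.94-fold) were also at 0 in mock HeyA8 cells and higher in PC3. ZNF525 had 31.2 and 29.2 CPM in mock PC3 cells and 0.507 and 0.145 in HeyA8, a fitted log2 difference of 6.85 ± 0.70 (SE, adjusted p = 2.3e-05 by edgeR) and a ratio of mock levels of 92.6. ZNF439 had 244 mock reads in PC3 and 2 in HeyA8, a ratio of 101 with a 95% counting interval of 28 to 835. ZNF429 had 130 mock reads in PC3 and 6 in HeyA8, a ratio of 18, and was called higher in PC3.

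In the other direction, ZNF114 had 909 mock reads in HeyA8 and 0 in PC3, at least 366-fold higher. ZNF599 was at least 23.7-fold higher in HeyA8. ZNF223 had 172 mock reads in HeyA8 and 2 in PC3, a ratio of 104 with a counting interval of 28.7 to 857. ZNF583, ZNF573, ZNF285, ZNF790, ZNF570, ZNF345 and ZNF493 completed the 10 called genes furthest towards HeyA8, with fitted log2 fold changes from -4.50 for ZNF583 to -2.40 for ZNF493. At 1 CPM or more in all 8 libraries of a line and under 0.1 CPM in all 8 of the other stood ZNF667, ZNF681, ZNF682 and ZNF439 for PC3 and ZNF223 for HeyA8.

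Members with a described role were called about as often as the family. Of a list of 16 such genes, 15 were tested, 8 were higher and 1 lower in PC3, beside 57.5% of the family and 45.5% of all genes called, with a median fitted log2 fold change of 1.19 beside 1.01 for the family. ZNF91, the repressor of SVA retroelements, had 24.0 and 21.6 CPM in mock PC3 cells and 3.26 and 1.67 in HeyA8, a ratio of 9.24 and a fitted log2 difference at 24 h of 3.40 ± 0.75 (SE, adjusted p = 0.0038 by edgeR). ZNF331, an imprinted gene, had 63.1 and 54.1 CPM in PC3 and 13.7 and 15.7 in HeyA8. ZNF675 (an inhibitor of TRAF6 signalling), ZNF580, ZNF304, ZNF350 (a BRCA1 partner), ZNF264 and ZNF611 were called higher in PC3, with ratios of mock levels of 3.99, 3.14, 3.24, 2.58, 2.61 and 1.98. ZNF274, which binds the 3′ ends of zinc finger genes and recruits SETDB1 there, was the exception, with 16.8 and 14.2 CPM in PC3 against 33.1 and 29.8 in HeyA8 (fitted log2 fold change -1.03, adjusted p = 0.0062 by edgeR). ZNF93, ZNF146, ZNF224, ZNF382, ZNF444 and ZNF568 were not called, and ZNF208 was too low to test.

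Of 8 zinc finger genes known to be methylated in tumours, 7 were tested and 4 were higher in PC3 (ZNF132 and ZNF677, with ratios of mock levels of 4.72 and 3.98, and ZNF471 and ZNF667 as above), with none lower, a share near that of the family. ZNF154, ZNF577 and ZNF671 were not called, although ZNF671 passed with centred time terms (adjusted p = 0.0347 by edgeR), and ZNF582 did not reach 10 reads in any library. Among 26 corepressor and heterochromatin genes 23.1% were called, below the 45.5% of all genes. The 6 called were all lower in PC3: CBX5 (HP1 alpha) by -1.72 on the fitted log2 scale, ATF7IP (a SETDB1 partner) by -1.16, DAXX by -0.75, HDAC2 by -0.72, EHMT1 by -0.70 and CHD4 by -0.69. TRIM28, the cofactor that KRAB boxes bind, was at 553 and 485 CPM in mock PC3 cells and at 569 and 585 in HeyA8, and neither it nor SETDB1 was called.

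After siGGGGGC in PC3, set against siNT1 to ask how the G-rich seed alters the transcriptome, 7 family genes rose and 2 fell of 207 tested. The family's share of calls was 4.35%, below the 9.67% among all 15136 genes tested, and its median log2 fold change was -0.06 beside 0.0029 for all genes. The median was -0.22 at 24 h and 0.14 at 48 h. Before adjustment, 36 genes were higher and 24 lower at a p under 0.05, out of 4864 of all genes. Leaving out either siNT1 library brought the 9 calls to 0, leaving out the siGGGGGC 24 h library raised them to 46, 36 higher and 10 lower, and leaving out the 48 h library gave 7, all lower. With mock as the control 13 genes were higher and 25 lower, and 6 of the 9 calls were kept.

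ZNF264, a KRAB gene at the start of the last run, had 55.4 and 70.8 CPM with siNT1 (24 and 48 h, scaled within PC3), 53.9 and 57.1 in mock cells, 50.8 and 70.6 with siCAG, and 91.6 and 204 with siGGGGGC. Both siGGGGGC libraries stood above the other 6, the 48 h library by far the highest, and the log2 fold change was 1.16 ± 0.25 (SE, adjusted p = 0.0323 by edgeR). ZNF543 had 14.9 and 26.8 CPM with siGGGGGC against 7.34 to 11.3 in the other 6 PC3 libraries (log2 fold change 1.28, adjusted p = 0.0218). ZNF264 and ZNF543 each have 1 GCCCCC match in the 3′ UTR, and they were the called genes that had one. ZNF627 rose by 0.94, ZNF625 by 1.25, ZNF101 by 0.78, ZNF211 by 0.81 and ZNF554 by 1.35 on the log2 scale. For ZNF554 the siNT1 libraries lay below mock (log2 fold change -1.03), and against mock its value with siGGGGGC was 0.32. ZNF625 overlaps the read-through gene ZNF625-ZNF20, so its count is uncertain.

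ZNF430 had 4.90 and 5.96 CPM with siGGGGGC in PC3, against 22.2 and 12.1 with siNT1, 22.9 and 25.3 in mock cells, and 15.1 and 6.09 with siCAG. The siGGGGGC libraries were the lowest of the line, the siCAG 48 h library lay just above them, and the log2 fold change against siNT1 was -1.58 ± 0.39 (SE, adjusted p = 0.0461). ZNF600 had 7.79 and 10.5 CPM against 14.9 to 23.2 in the other 6 libraries, a log2 fold change of -1.15 ± 0.24 (SE, adjusted p = 0.0319). The ZNF600 protein was 89.1% identical to ZNF611 over the stretch that aligned, so reads of the pair may be shared or lost in counting.

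After siGGGGGC in HeyA8 no family gene of 196 tested was called, and 0% of all 13872 genes tested was called by edgeR. Before adjustment 12 family genes were higher and 10 lower at a p under 0.05, beside 501 higher and 851 lower of all genes. DESeq2 called 4 family genes. The fold changes leaned upwards: 158 of 196 were positive, with a median of 0.32 beside 0.0040 for all genes. ZNF genes on other chromosomes leaned the same way, with 120 of 193 positive and a median of 0.141. The other chromosome 19 genes had a median of -0.193. The median was 0.21 at 24 h and 0.39 at 48 h. Against mock in place of siNT1 the median was 0.165, and without a single siNT1 library it was 0.508 (24 h left out) or 0.177 (48 h left out).

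The 5 family genes with the smallest p in that comparison were ZNF444, ZNF850, ZNF524, ZNF787 and ZNF625. ZNF444 had 8.87 and 8.45 CPM with siGGGGGC in HeyA8, against 24.5 and 20.1 with siNT1, 16.6 and 13.3 in mock cells, and 23.0 and 14.2 with siCAG. Both siGGGGGC libraries lay below the other 6, and the log2 fold change was -1.35 ± 0.25 (SE), with an adjusted p of 0.191 that did not pass. The siNT1 libraries were themselves above the mock ones, with a log2 fold change of 0.58. ZNF524 (-1.74, adjusted p = 0.239) and ZNF787 (-1.12, adjusted p = 0.263) are neighbours of ZNF444, each with 1 GCCCCC match. For these siNT1 also lay above mock (0.67 and 0.37), and against mock the log2 fold changes with siGGGGGC were -0.77 for ZNF444, -1.08 for ZNF524 and -0.76 for ZNF787. ZNF850 (1.61, adjusted p = 0.239) and ZNF625 (1.40, adjusted p = 0.311) pointed upwards. For both, siNT1 lay below mock (log2 fold changes -0.88 and -0.76), and against mock their values with siGGGGGC were 0.73 and 0.63. When only the siGGGGGC and siNT1 libraries of HeyA8 were fitted, ZNF444, ZNF524, ZNF787 and ZNF850 passed and ZNF625 did not. The adjusted p-values by edgeR were then 0.00055, 0.0026, 0.00077, 0.0013 and 0.059. ZNF444 in PC3 had 26.2 and 11.2 CPM with siGGGGGC and 34.7 and 21.7 with siNT1, a log2 fold change of -0.63 (adjusted p = 0.222).

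**Figure D3:**
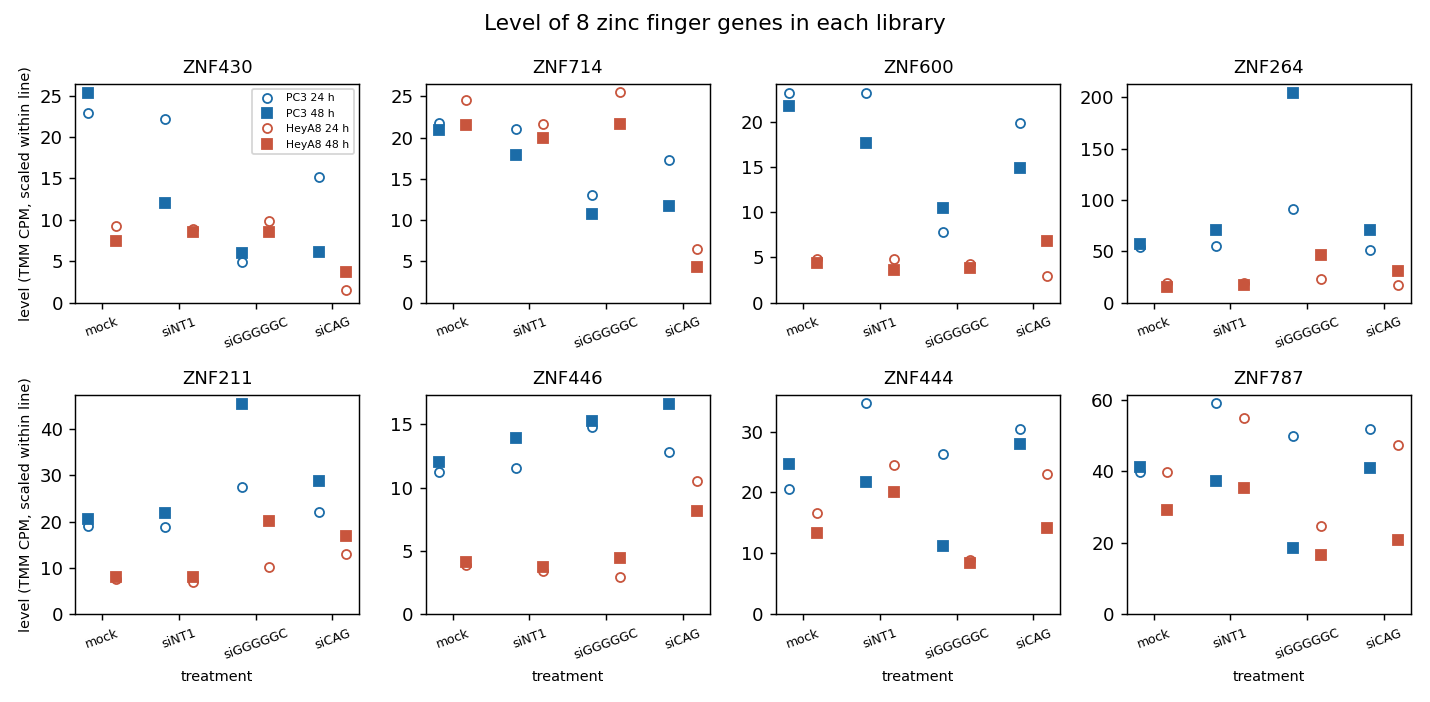
Level of single genes (TMM CPM, scaled within each line, so heights are not compared between lines) in each library by treatment, with 24 and 48 h marked. ZNF264 with siGGGGGC in PC3 reaches 91.6 and 204 CPM, ZNF430 falls there to 4.90 and 5.96, and ZNF714 with siCAG in HeyA8 lies at 6.54 and 4.28 CPM.

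Genes with a seed match had the lower medians after siGGGGGC, in the family as over all genes. The 40 tested PC3 genes with GCCCCC had a median log2 fold change of -0.12 after siGGGGGC and those without -0.02, while the values over all genes were -0.09 and 0.04. In HeyA8 the medians were 0.13 with and 0.36 without a match, beside -0.10 and 0.05 over all genes. Among the genes with the most matches, ZNF8 had 17.7 and 33.0 CPM with siGGGGGC in PC3 against 12.8 and 16.1 with siNT1 (log2 fold change 0.78, adjusted p = 0.0725) and has 4 sites. ZNF175, ZNF765 and ZNF865, with 3 matches each, had log2 fold changes of -0.38, -0.86 and -0.95 in PC3 and -0.11, 0.43 and -1.03 in HeyA8. None of these 5 genes was called in either line by the fit of all 8 libraries. With the 4 compared libraries alone, ZNF444 (adjusted p = 0.00055 by edgeR) and ZNF865 (adjusted p = 0.0367) passed in HeyA8, and ZNF444 also passed with DESeq2.

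Fold changes were also read by run of neighbours. After siGGGGGC the last run, ZNF264 to ZNF446, had 36 of 40 fold changes above 0 in PC3 (median 0.47, 19 at an unadjusted p under 0.05, 3 called) and 34 of 37 in HeyA8 (median 0.48, 1 at an unadjusted p under 0.05, 0 called). Over all genes 4864 of 15136 had an unadjusted p under 0.05 in PC3 and 1352 of 13872 in HeyA8, and the 3 calls of 40 in PC3 are a smaller share than the 9.67% of all genes. The run before it, ZNF628 to ZNF835, leaned downwards, with 12 of 14 below 0 in PC3 (median -0.42) and 10 of 12 in HeyA8 (median -0.92, 7 at an unadjusted p under 0.05, 0 called). With siNT1 against mock in HeyA8, the run ZNF628 to ZNF835 had a median of 0.36 (8 of 12 above 0) and the last run -0.16 (33 of 37 below 0), so the control itself lay on the other side of mock. With mock as the control the HeyA8 medians after siGGGGGC were -0.58 and 0.25. The signs above held with RLE or library size scaling, with DESeq2, with mock as the control and with any compared library left out. The run ZNF101 to ZNF254 had 21 of 23 fold changes below 0 in PC3 (median -0.71, ranging from -0.40 to -1.26 with a library left out), but its median in HeyA8 was 0.16. In the run ZNF175 to ZNF331, 26 of 37 were below 0 in PC3 (median -0.27) and 31 of 36 above 0 in HeyA8 (median 0.31). Its PC3 median was -0.69 at 24 h and 0.18 at 48 h, and 0.10 with the siGGGGGC 24 h library left out, while in HeyA8 it was 0.23 and 0.39 at the 2 times, so the lines lay on opposite sides at 24 h and on the same side at 48 h. ZNF101 itself, at the edge of the run ZNF101 to ZNF254, rose in PC3, while ZNF430 of that run fell. The genes within a run are related and not independent, and both siRNAs share the siNT1 libraries of a line.

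**Figure D4:**
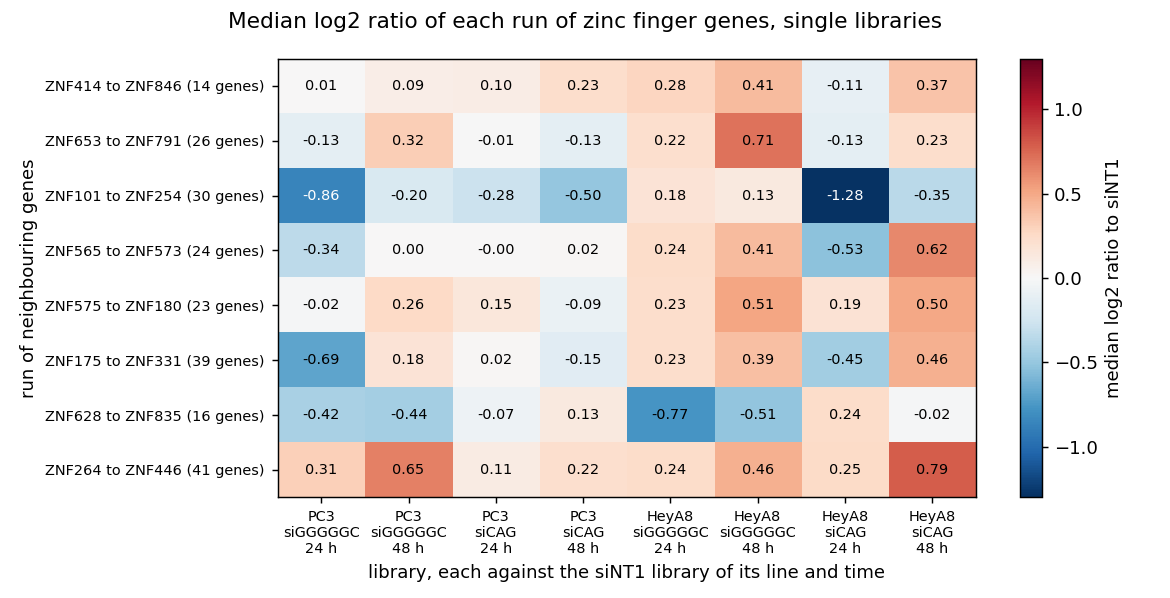
Median log2 ratio (number and colour) of the tested genes in each of the 8 longest runs (vertical axis, with all genes of the run counted) for each siRNA library against the siNT1 library of the same line and time (horizontal axis). The last run, ZNF264 to ZNF446, is positive in all 8 libraries, from 0.11 to 0.79, and ZNF101 to ZNF254 is negative in the 6 libraries other than HeyA8 siGGGGGC, down to -1.28.

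Base composition moved with these groups. The family's transcripts had a median GC content of 42.4%, against 49.3% over all genes, the run ZNF101 to ZNF254 was at 37.0% and ZNF628 to ZNF835 at 63.3%. In PC3 with siGGGGGC the lowest of 5 equal groups of all genes by GC content (up to 41.0%) had a median log2 fold change of -0.38, and the medians of the other groups, from low to high GC, were 0.04, 0.17, 0.12 and 0. Those of the family were -0.53, 0.14, 0.43, -0.16 and -0.22 from the lowest to the highest group, with 70, 88, 26, 3 and 19 genes. In HeyA8 the medians of all genes from the lowest to the highest group were 0.10, 0.06, 0.04, -0.02 and -0.25. Those of the family were 0.35, 0.45, 0.27, 0.06 and -0.79, with 61, 84, 28, 4 and 18 genes. Genes without a KRAB-like stretch had a median of 0.17 in HeyA8 and those with it 0.36 (49 and 146 genes), or -0.15 and 0.38 with the wider pattern (32 and 163 genes). In PC3 the medians were -0.09 and -0.03, or -0.22 and 0.01 with the wider pattern. The part of base composition in the run differences was not tested.

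**Figure D5:**
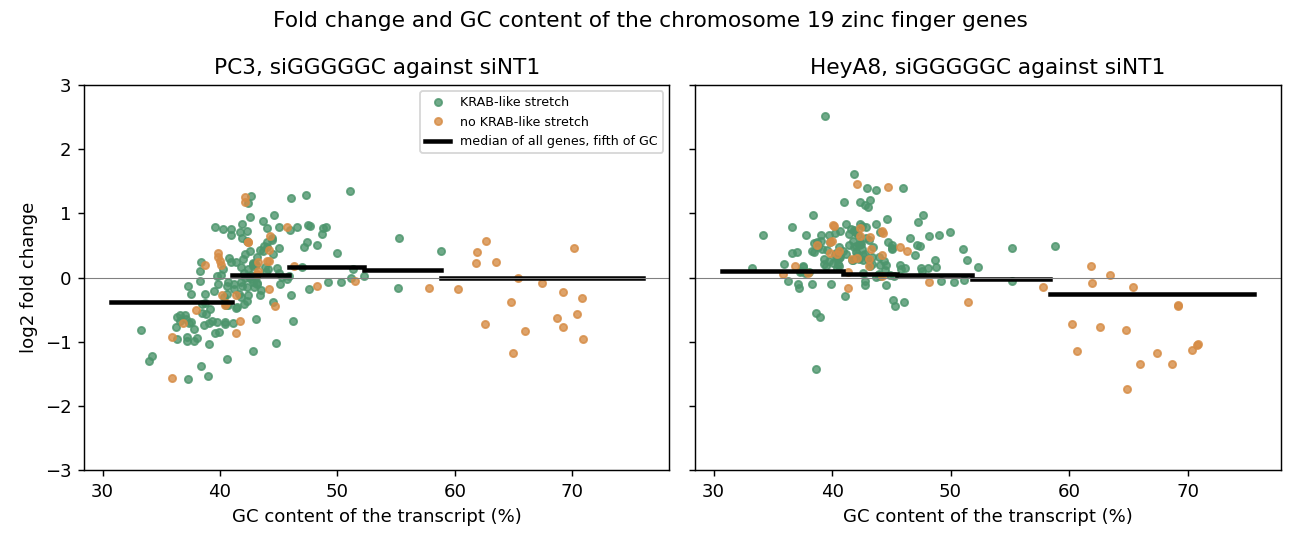
Log2 fold change after siGGGGGC (vertical axis) against GC content of the transcript in percent (horizontal axis) for the family genes tested in PC3 and HeyA8, coloured by the narrower KRAB pattern, with bars at the median of all genes in each of 5 equal GC groups. In PC3 the low-GC genes lie below 0 together with all low-GC genes (median -0.38), and in HeyA8 the high-GC family genes lie lowest (median -0.79).

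In PC3 with siCAG no family gene of 207 was called by edgeR or by DESeq2, against 1.2% of all genes. At an unadjusted p under 0.05, 8 family genes were higher and 1 lower, beside 749 higher and 1288 lower of all 15136 genes tested. The genes with the smallest p were ZNF235 (log2 fold change 1.01, adjusted p = 0.222), ZNF772 (0.64), ZNF554 (0.98), ZNF726 (-0.79) and ZNF763 (0.83), and ZNF554 turned to -0.053 with mock as the control. The family median was 0.0166, and all 23 tested genes of the run ZNF101 to ZNF254 had fold changes below 0 (median -0.44).

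In HeyA8 siCAG lowered 3 family genes and raised 1 of 196 tested, a share of 2.04% beside 7.81% of all genes. The 3 that fell, ZNF714, ZNF738 and ZNF486, all lie in the run ZNF101 to ZNF254. ZNF714 had 6.54 and 4.28 CPM with siCAG, against 21.7 and 19.98 with siNT1, 24.6 and 21.5 in mock cells, and 25.5 and 21.7 with siGGGGGC. The siCAG libraries stood far below the other 6, and the log2 fold change was -1.97 ± 0.25 (SE, adjusted p = 0.0109 by edgeR). ZNF738 fell by 1.77 (adjusted p = 0.0300) and ZNF486 by 1.94 (adjusted p = 0.0484) on the log2 scale. ZNF431 (-1.21) and ZNF430 (-1.75), close relatives of ZNF714 in the same run, just missed the threshold, with adjusted p-values of 0.0523 and 0.0524.

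ZNF446, a SCAN gene and the last gene of the last run, rose. It had 10.5 and 8.14 CPM with siCAG, against 3.44 and 3.76 with siNT1, 3.90 and 4.16 in mock cells, and 2.98 and 4.44 with siGGGGGC. Both siCAG libraries were above the other 6 (log2 fold change 1.38 ± 0.32 SE, adjusted p = 0.0477). The run ZNF101 to ZNF254 had 14 of 16 fold changes below 0 (median -1.02), and the run ZNF264 to ZNF446 had 34 of 37 above 0 (median 0.57). The 2 times differed, with a family median of -0.09 at 24 h and 0.50 at 48 h. Leaving out either siNT1 library brought the 4 calls to 0, leaving out the siCAG 24 h library gave 45 (34 higher, 11 lower) and leaving out the 48 h library gave 43 (9 higher, 34 lower). In this line the lowest GC group of all genes had a median of -0.49, and the family genes in it -0.08.

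The genes that KRAB proteins work through were also read. In PC3 with siGGGGGC, 3 of 26 were called (11.5%), near the 9.67% of all genes. FAM208A (TASOR, a HUSH complex subunit) had 54.3 and 54.9 CPM against 174 and 115 with siNT1, and fell by 1.37 on the log2 scale. ATF7IP had 31.7 and 29.4 CPM against 61.2 and 59.6, and fell by 1.01. DNMT3A, a DNA methyltransferase, rose by 0.78. In HeyA8 with siCAG 4 of the 26 fell and none rose (15.4% called, against 7.81% of all genes): UHRF1 (which brings DNMT1 to newly copied DNA) by 2.62, SUV39H2 by 1.86, HDAC2 by 1.39 and CBX5 by 1.16 on the log2 scale. TRIM28 and SETDB1 were not called in either comparison, and in the other 2 siRNA comparisons none of the 26 was called. Of the genes with a described role 1 was called with siGGGGGC in PC3 (ZNF264) and none in the other 3 siRNA comparisons, and none of the tumour-methylated genes was called in the 4.

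With siNT1 against mock no family gene was called in PC3, where 0.231% of all genes were, or in HeyA8, where 0% were. DESeq2 also called 0 in both. At an unadjusted p under 0.05, 3 family genes were higher and 5 lower in PC3, and 1 was lower in HeyA8. Over all genes, 780 were higher and 584 lower of 15136 in PC3, and 89 higher and 88 lower of 13872 in HeyA8. The smallest p-values in PC3 belonged to ZNF132 (-0.82), ZNF738 (0.97), ZNF331 (-0.51), ZNF554 (-1.03) and ZNF677 (0.76), and in HeyA8 to ZNF850 (-0.88), ZNF444 (0.58), ZNF625 (-0.76), ZNF524 (0.67) and ZNF230 (0.57, log2 fold changes). In HeyA8 148 of 196 fold changes were below 0, with a median of -0.14. There 51.1% of all genes and 127 of 193 ZNF genes on other chromosomes (median -0.096) were below 0. In PC3 134 of 207 family genes were below 0 (median -0.092).

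At 48 h against 24 h, averaged over the treatments, no family gene was called in PC3 (0.0264% of all genes) or in HeyA8 (0% of all genes), by edgeR or DESeq2. At an unadjusted p under 0.05, 9 were higher and 7 lower in PC3, and 10 higher and 5 lower in HeyA8. Over all genes, 954 were higher and 1078 lower of 15136 in PC3, and 359 higher and 520 lower of 13872 in HeyA8. The smallest p-values belonged to ZNF547 (0.59), ZNF441 (-0.85), ZNF264 (0.52), ZNF414 (-0.59) and ZNF681 (-0.86) in PC3. In HeyA8 they belonged to ZNF414 (-0.89), ZNF787 (-0.72), ZNF607 (0.69), ZNF114 (-0.58) and ZNF230 (0.69, log2 fold changes). ZNF414 was lower at 48 h under each of the 4 treatments in both lines.

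The difference in response between the lines was tested directly in a fit of all 16 libraries. For siGGGGGC no family gene of 214 and 0% of all genes was called, DESeq2 called 0, and 12 family genes had a lower fold change in PC3 and 0 a higher one at an unadjusted p under 0.05, beside 700 lower and 354 higher of 15887 genes tested. For siCAG no family gene was called by edgeR against 0.636% of all genes, DESeq2 called 3, and 19 had a lower and 3 a higher fold change in PC3 at an unadjusted p under 0.05, beside 1435 lower and 892 higher over all genes. The opposite medians of the run ZNF101 to ZNF254 after siGGGGGC, and those of ZNF175 to ZNF331 at 24 h, are therefore given as values and not as called differences.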

How the data were processed

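RNA was extracted with a miRNeasy kit and libraries were made with a TruSeq total RNA kit. The authors trimmed paired-end reads (Trimmomatic), aligned them to hg38 (TopHat or STAR by the methods, STAR by the processing notes) and deposited raw counts of exonic reads per gene, made with HTSeq on an Ensembl annotation. The strand setting is not given in the sources used here, so antisense reads may be included. All 16 columns were matched to labels and 0 columns belonged to no sample. The members, gene lists and groupings were chosen with earlier results of these data known, and GC groups, run medians under alternatives and the wider KRAB pattern after seeing these values. ZNF43 and ZNF85 lie on alternate contigs in the table and are not members. Part of the prostate marker list is not reported here.

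Counts were scaled by TMM, filtered with filterByExpr and tested with edgeR 4.0.16 (quasi-likelihood, R 4.3.3) over all genes, with Benjamini-Hochberg adjustment. Each line was fitted with its 8 libraries and siRNA and time terms, and line comparisons with all 16 libraries, line and siRNA together and a time term for each line, with 24 h as the baseline (centred between the times as an alternative added after seeing the data). The time point is the replicate number. Deviations of libraries of the same time from their group means correlated with r of 0.0539 to 0.612 in PC3 and -0.0431 to 0.46 in HeyA8 over 6 pairs of groups each. The biological coefficient of variation was 18% in PC3, 28.2% in HeyA8 and 23.5% over both. Values at a single time are log2 ratios with 0.5 CPM added. DESeq2 1.42.0 was an alternative. Scripts were tested on simulated data. Sequence features came from GENCODE v44 on hg38, matched by symbol for 233 genes (ZNF812 and ZNF788 were not matched), by patterns for KRAB, SCAN and C2H2 stretches and by blastp 2.17.0. Genes were named by rule: up to 10 called genes in each direction with the same direction at both times, the 5 smallest p-values where fewer than 5 were called, the 10 highest mock levels, genes restricted to a line, those with the most GCCCCC, and the fixed lists.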

Additional observations from a re-analysis of the deposited data

How the results depend on the processing

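With 1 library for each siRNA and time, calls within a line rest on few residual degrees of freedom, and 19 genes stayed under 10 reads in every library. After siGGGGGC in PC3 (9 calls), DESeq2 gave 35, no filter on low counts 17, no replicate block 3, the 4 compared libraries alone 0, mock as the control 38, and leaving out a library 0 to 46. After siGGGGGC in HeyA8 (0 calls), DESeq2 gave 4 and the compared libraries alone 12. ZNF444, ZNF524, ZNF787 and ZNF865 were among these 12. After siCAG in PC3 (0 calls) the compared libraries alone gave 8, and with mock as the control ZNF554 reversed to -0.053. After siCAG in HeyA8 (4 calls), DESeq2 gave 20, no replicate block 8, the compared libraries alone 1, mock as the control 7, and leaving out a library 0 to 45. For siNT1 against mock in HeyA8 (0 calls) the compared libraries alone gave 8. Between mock lines (123 calls), leaving out a library gave 74 to 101. For the siCAG response between lines (0 calls), library size alone gave 1, DESeq2 3, and leaving out a library 0 to 10. The causes were not tested. The share of all genes called under each alternative is not set beside these counts, here or above. They show how far the calls depend on the setting and are not read as changes of the family. A library left out leaves a group with 1 library, assumed to vary like the other groups. RLE scaling and a filter of 1 CPM in 4 libraries kept every count of calls within 1.5 times.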
